A study of Mus musculus with 6 samples.

Results

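The Cd209 lectin cluster of the mouse comprises 7 genes named after DC-SIGN, and all 7 were measured here in dendritic cells grown from the bone marrow of transplanted mice. The members were taken by symbol (Cd209a, Cd209b, Cd209c, Cd209d, Cd209e, Cd209f and Cd209g) from the platform annotation, out of 19938 genes with a probe set of their own. Each had 1 probe set, and no Cd209 symbol was on a probe set shared by several symbols. The family was selected on measured values, the differences of Cd209a, Cd209e and Cd209d in the very contrast described here, of which the first and second had been called. The members' values are therefore given as a description without p-values.

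The preparations of the UV-donor group (3 arrays) came from female C57BL/6J mice injected with 2000000 bone marrow cells of B6.SJL-Ptprca donors (CD45.1) whose shaved dorsal skin had received up to 8 kJ/m2 of broadband ultraviolet (UV) radiation, equivalent to 3-4 minimal erythemal doses. Those of the naive-donor group (3 arrays) came from female C57BL/6J mice injected with as many marrow cells of naive B6.SJL-Ptprca donors. Mice were 6-10 weeks old at irradiation. Recipient marrow was then grown for 5 days in GM-CSF and IL-4 (10 ng/ml each), cytokines that drive it towards dendritic cells, and cells carrying the integrin CD11c were enriched with magnetic beads to above 95%. The labels do not describe any conditioning of the recipients or the interval between transfer and harvest, and the arrays do not separate donor-derived from host-derived cells. Nor do the labels say that the 3 preparations of a group came from separate recipients, so errors and p-values cover the variation among these samples alone, part or all of which may be technical.

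DC-SIGN is a calcium-dependent (C-type) lectin of dendritic cells that binds mannose- and fucose-rich glycans on microbes and on host adhesion molecules, and carries bound cargo into the cell. In humans it is encoded by CD209 and is a classic marker of dendritic cells grown from monocytes with GM-CSF and IL-4. The mouse genes arose by duplication and encode receptors with different cellular distributions and glycan preferences. Cd209a (SIGNR5, also called CIRE) is the member best known from dendritic cells, Cd209b (SIGNR1) is known from macrophages of the splenic marginal zone and lymph node medulla, and Cd209d (SIGNR3) is known as a receptor for mycobacterial ligands.

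The 6 arrays were closely alike, with correlations over all 35556 probe sets of 0.995 to 0.997 within groups and 0.995 to 0.996 between groups, and array medians between 7.16 and 7.23 on the log2 scale. Their spread differed by group, with an interquartile range of 3.71 to 3.75 on UV-donor arrays, against 3.61 to 3.68 on naive-donor arrays. Quantile normalization, which equalises that spread, gave differences of 0.56 for Cd209a and 0.73 for Cd209e, and the second was then not called. The labelled cell type was checked against its markers. Itgax, which encodes CD11c, had a log2 signal of 13.73 ± 0.02 in the UV-donor group and 13.77 ± 0.02 in the naive-donor group (SD, n = 3 each). All but 1 of 10 markers of GM-CSF dendritic cells were above the dim limit, the 30th percentile of gene means at a log2 signal of 6.58. The exception was Flt3, the receptor for a growth factor of other dendritic cell lineages.

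Mean signals of Cd209a, Cd209e and Cd209d were higher in the UV-donor group, by 1.51-fold, 1.69-fold and 1.56-fold, and those of the other 4 members differed less. Cd209c was 1.15-fold higher in value. Cd209b, Cd209f and Cd209g were lower in value, at 0.931, 0.930 and 0.839 of the naive-donor level. Of the 7 members, 5 lay above the dim limit and were tested across all genes. Of these, Cd209a and Cd209e were called, that is, had a two-sided limma p below 0.05 after Benjamini-Hochberg adjustment over the 13956 tested genes. Of those genes 24, or 0.172%, were called higher and 0, or 0%, lower, while 1340 had higher and 766 lower values with an unadjusted p below 0.05. The median difference of the 7 members, including the 2 not tested, was 0.21, against 0.0016 for all tested genes. Both the count and the median follow from how the family was chosen.

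**Figure D1:**
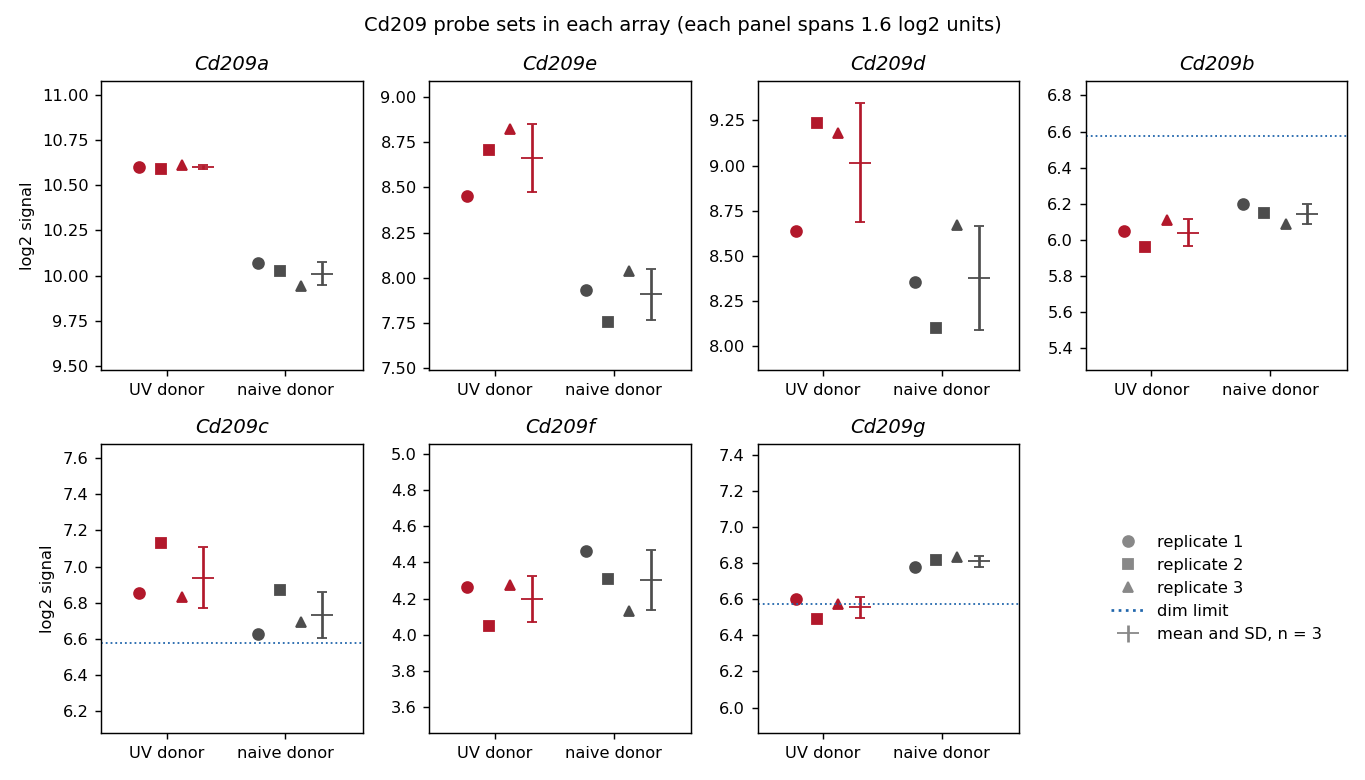
Log2 signal of the probe set of each Cd209 gene in each array, with UV-donor arrays in red on the left of each panel and naive-donor arrays in grey on the right. Symbols mark replicate numbers, bars the mean and SD of 3 arrays, and the dotted line the dim limit at 6.58. Groups are apart for Cd209a, Cd209e and Cd209g and overlap for the other 4 genes.

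Cd209a (probe set 10576784) had log2 signals of 10.60, 10.59 and 10.61 on the UV-donor arrays, against 10.07, 10.02 and 9.94 on the naive-donor arrays. The groups did not overlap, and the UV-donor arrays lay within a span far narrower than the gap between groups. The difference was 0.59 (SE 0.05, 95% interval 0.47 to 0.71). With any 1 array left out it stayed between 0.56 and 0.62.

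Cd209e (SIGNR4, probe set 10576799) had log2 signals of 8.45, 8.70 and 8.82 on the UV-donor arrays, against 7.93, 7.75 and 8.04 on the naive-donor arrays. All UV-donor arrays exceeded all naive-donor arrays, and the lowest UV-donor value was that of replicate 1. The difference was 0.75 (SE 0.12, 95% interval 0.47 to 1.03). It stayed between 0.67 and 0.86 with any 1 array left out.

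Cd209d (probe set 10576807) had log2 signals of 8.64, 9.24 and 9.18 on the UV-donor arrays, against 8.36, 8.10 and 8.67 on the naive-donor arrays. Here the groups overlapped, since UV-donor replicate 1 lay just below naive-donor replicate 3. The difference of 0.64 lay between those of Cd209a and Cd209e, but its error was wider (SE 0.21, 95% interval 0.14 to 1.14), and the gene did not pass the test across all genes. Without UV-donor replicate 1 the difference was 0.83, and without naive-donor replicate 2 it was 0.50.

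The remaining members had weak signals. Cd209c (SIGNR2, probe set 10576829) had log2 signals of 6.85, 7.13 and 6.83 on the UV-donor arrays, against 6.63, 6.87 and 6.69 on the naive-donor arrays. Its groups overlapped, and its difference was 0.21 (SE 0.11, 95% interval -0.05 to 0.46). Replicate 2 was the highest array in either group.

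Cd209g (SIGNR7, probe set 10569896) ran the other way, with log2 signals of 6.60, 6.49 and 6.57 on the UV-donor arrays, against 6.78, 6.82 and 6.83 on the naive-donor arrays. The groups did not overlap, and the difference was -0.25 (SE 0.05, 95% interval -0.38 to -0.13). The gene did not pass the test across all genes. Its UV-donor mean of 6.55 was itself below the dim limit, so that it entered the test through the naive-donor arrays.

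Cd209b (probe set 10576816) and Cd209f (SIGNR8, probe set 10576835) were below the dim limit and were not tested. Cd209b had 6.05, 5.96 and 6.11 on the UV-donor arrays, against 6.20, 6.15 and 6.09 on the naive-donor arrays, a difference of -0.10 (SE 0.06). Cd209f had 4.27, 4.05 and 4.27 on the UV-donor arrays, against 4.46, 4.31 and 4.13 on the naive-donor arrays, a difference of -0.11 (SE 0.10). Both intervals included 0, from -0.25 to 0.04 for Cd209b and from -0.36 to 0.15 for Cd209f, and both pairs of groups overlapped.

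Over the 7 members the groups did not overlap in 3 cases, 2 higher and 1 lower. Among all 19938 genes, groups did not overlap with the UV-donor arrays higher in 9.53% and with them lower in 10.1%. The signs of all 7 differences were the same with centred array medians, quantile normalization and cyclic loess. Closely related copies can share probe sequence, and cross-hybridisation between members was not tested.

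The call of Cd209a was lost without UV-donor replicate 2, UV-donor replicate 3 or naive-donor replicate 1, although its difference hardly moved, and that of Cd209e was lost without any 1 of the arrays except UV-donor replicate 1. In the same 3 fits that lost Cd209a, limma called 1 gene in each over all tested genes.

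Promoter sequences of all 7 members were found in the RefSeq promoter table of build GRCm38.p6 and are shown for the members above except Cd209c. Each window runs from 250 bases before the annotated start to 20 bases after it, 5′ to 3′ on the gene's strand. The first 4 show what the promoters of the 3 members with the largest differences have in common, beside Cd209b as the neighbour that lacks it. Capitals mark a run of 12 bases, TTTCTCTTCCTA, the longest run present in the Cd209a, Cd209e and Cd209d windows. It was searched for after the values were seen. The windows lie on the minus strand of chromosome 8, Cd209a at chr8:3748965-3749234, Cd209e at chr8:3854267-3854536, Cd209d at chr8:3878480-3878749 and Cd209b at chr8:3926822-3927091.
Cd209a: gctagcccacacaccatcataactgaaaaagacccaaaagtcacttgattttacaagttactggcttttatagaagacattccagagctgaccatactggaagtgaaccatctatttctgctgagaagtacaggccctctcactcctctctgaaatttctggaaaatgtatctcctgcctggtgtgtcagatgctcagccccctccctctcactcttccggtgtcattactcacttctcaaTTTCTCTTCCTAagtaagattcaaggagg
Cd209e: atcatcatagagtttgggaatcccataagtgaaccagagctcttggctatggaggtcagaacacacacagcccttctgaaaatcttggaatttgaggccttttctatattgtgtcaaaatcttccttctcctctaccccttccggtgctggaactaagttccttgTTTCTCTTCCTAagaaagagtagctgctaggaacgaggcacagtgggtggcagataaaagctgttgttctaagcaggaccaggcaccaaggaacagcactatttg
Cd209d: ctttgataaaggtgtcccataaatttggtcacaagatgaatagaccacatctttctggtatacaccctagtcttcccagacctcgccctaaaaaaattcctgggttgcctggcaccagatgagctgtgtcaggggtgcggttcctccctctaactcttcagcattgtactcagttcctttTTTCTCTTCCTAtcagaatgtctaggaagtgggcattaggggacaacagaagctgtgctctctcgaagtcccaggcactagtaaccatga
Cd209b: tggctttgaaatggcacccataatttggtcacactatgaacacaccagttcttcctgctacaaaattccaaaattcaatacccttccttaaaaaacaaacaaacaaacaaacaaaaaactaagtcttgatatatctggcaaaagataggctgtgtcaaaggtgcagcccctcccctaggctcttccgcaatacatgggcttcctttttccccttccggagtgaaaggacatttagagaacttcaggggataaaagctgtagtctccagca

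Counted from the start, with -1 the base before it, the run lay at positions -85 to -74 in Cd209e and -70 to -59 in Cd209d, and in Cd209a it spanned the start, from -9 to 3. In Cd209a and Cd209e it extended to 14 bases, TTTCTCTTCCTAAG. On either strand it was present in 9 of 32851 promoter windows of the same length in the table, or 0.0274%, these 3 included. The run was defined as one that these 3 windows hold, so that share is not separate support for it. Cd209b shared a different run of 12 bases with Cd209e (GATAAAAGCTGT) and another with Cd209d (AATTTGGTCACA), so pairs that included Cd209b also shared runs of that length. Runs common to any other 3 windows were not sought.

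The shared run contains CTTCCT, the reverse complement of AGGAAG, an ETS-type motif of the kind that PU.1, the myeloid factor encoded by Spi1, can bind. On both strands together AGGAAG was found in 4 of the 7 members (Cd209a, Cd209b, Cd209d and Cd209e) and in 31.8% of all windows. The related PU.1 core GAGGAA was found in Cd209d alone and in 25.1% of all windows. The palindromic STAT6-type motif, TTC and GAA separated by any 4 bases, was found in 1 member, Cd209e, where it began inside the shared run at position -79 and ended at -70, and in 6.30% of all windows. The STAT motif with a spacer of 3 bases was found in 0 members and in 7.58% of all windows.

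Cd209f and Cd209g stand next to each other at the far end of the cluster, on opposite strands, and their windows show the closest resemblance. The capitals mark an identical run of 174 bases. Cd209f lies on the minus strand at chr8:4105745-4106014 and Cd209g on the plus strand at chr8:4134486-4134755.
Cd209f: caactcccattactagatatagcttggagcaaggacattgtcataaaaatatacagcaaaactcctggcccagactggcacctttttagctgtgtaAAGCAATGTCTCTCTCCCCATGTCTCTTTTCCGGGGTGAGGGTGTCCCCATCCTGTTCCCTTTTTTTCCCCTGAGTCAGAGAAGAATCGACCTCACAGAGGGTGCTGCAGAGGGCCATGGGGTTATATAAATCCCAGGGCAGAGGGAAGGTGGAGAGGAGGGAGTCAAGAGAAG
Cd209g: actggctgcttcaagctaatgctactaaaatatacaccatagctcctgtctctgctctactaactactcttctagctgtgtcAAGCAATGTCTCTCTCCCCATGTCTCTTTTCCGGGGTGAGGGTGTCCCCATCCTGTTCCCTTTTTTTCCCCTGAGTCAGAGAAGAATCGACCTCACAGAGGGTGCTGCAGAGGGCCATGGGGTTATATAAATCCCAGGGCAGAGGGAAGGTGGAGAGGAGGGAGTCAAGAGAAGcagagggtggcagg

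The members with the largest differences are neighbours among the protein-coding genes of chromosome 8 (RefSeq, GRCm38.p6). Cd209a, Cd209e and Cd209d lie at one end of the cluster and had differences of 0.59, 0.75 and 0.64. Cd209b, Cd209c, Cd209f and Cd209g follow in that order, with differences of -0.10, 0.21, -0.11 and -0.25. Of the 5 protein-coding genes on each side of the cluster, 7 were in the table and are described here, and none of the 5 of these that were above the dim limit passed limma's test.

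Next to Cd209a lies Clec4g, a C-type lectin of liver and lymph node sinus endothelium, with a difference of -0.07 (95% interval -0.23 to 0.10) and a mean below the dim limit. Next comes Fcer2a, which encodes the low-affinity IgE receptor CD23, likewise below the dim limit, with a log2 signal of 5.92 ± 0.17 in the UV-donor group and 6.12 ± 0.04 in the naive-donor group (SD, n = 3 each). Farther out, Trappc5, a subunit of a vesicle tethering complex, differed by 0.11, with a limma adjusted p of 0.487. Mcemp1, a membrane protein first described in mast cells, had 9.66 ± 0.14 in the UV-donor group and 9.36 ± 0.09 in the naive-donor group (SD, n = 3 each). The difference was 0.29 (95% interval 0.08 to 0.50), with a limma adjusted p of 0.167. Groups were apart for Mcemp1 and Trappc5, with higher UV-donor values, and for Fcer2a, with lower ones. Over all 19938 genes, groups were apart and higher in 9.53% and apart and lower in 10.1%. Beyond Cd209g, the differences of Evi5l, Prr36 and Lrrc8e were 0.06, -0.09 and -0.12, with limma adjusted p-values from 0.490 to 0.616.

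**Figure D2:**
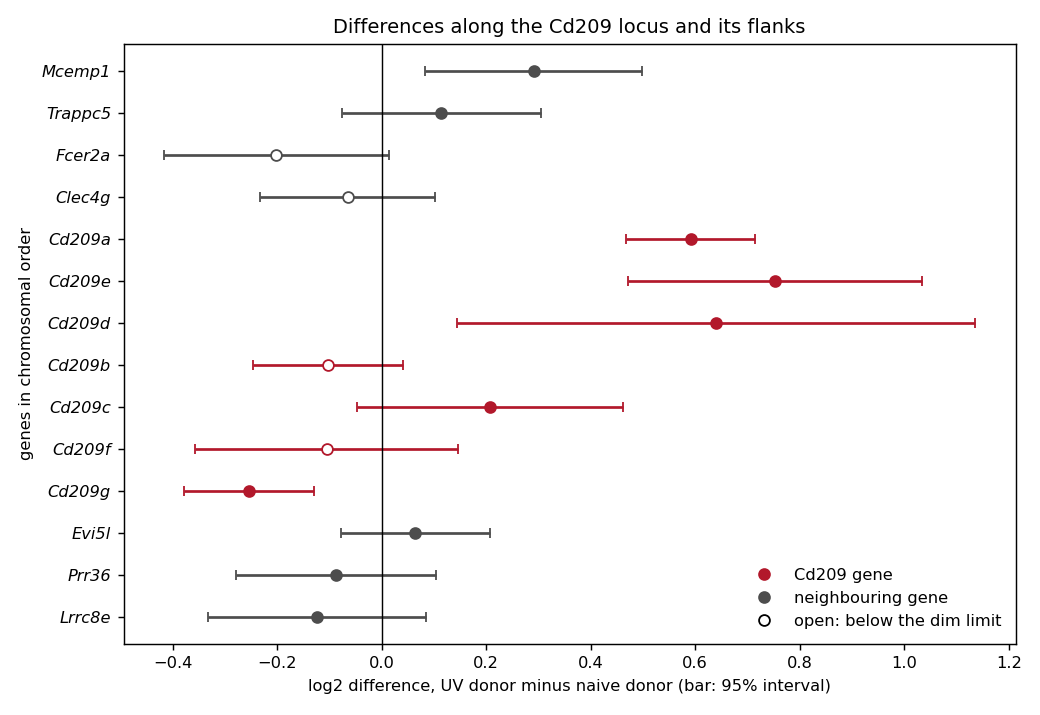
Log2 difference, UV donor minus naive donor, with its 95% interval for each Cd209 gene (red) and for 7 neighbouring genes (grey), from top to bottom in chromosomal order. Open symbols are genes below the dim limit. The 3 largest differences, 0.59 to 0.75, belong to the adjacent genes Cd209a, Cd209e and Cd209d, on whose values the family was chosen. The neighbours lie between -0.20 and 0.29.

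Within the groups Cd209d and Cd209e varied together. Their deviations from the group means correlated at 0.94 over the 6 arrays. UV-donor replicate 1 was low for both, by -0.38 for Cd209d and -0.21 for Cd209e, as was naive-donor replicate 2, by -0.28 and -0.15. Naive-donor replicate 3 was high for both, by 0.30 and 0.13. Cd209a did not share that order. Its deviations ran from -0.07 to 0.06 and correlated with those of Cd209d at -0.46 and with those of Cd209e at -0.28. Such values were not particular to Cd209d and Cd209e. Deviations of Cd209b and Cd209f, both below the dim limit, correlated at 0.93, and those of Cd209a and Cd209f at 0.86. These correlations describe 6 arrays whose members share array and preparation, and the values of closely related copies may also share probe sequence.

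**Figure D3:**
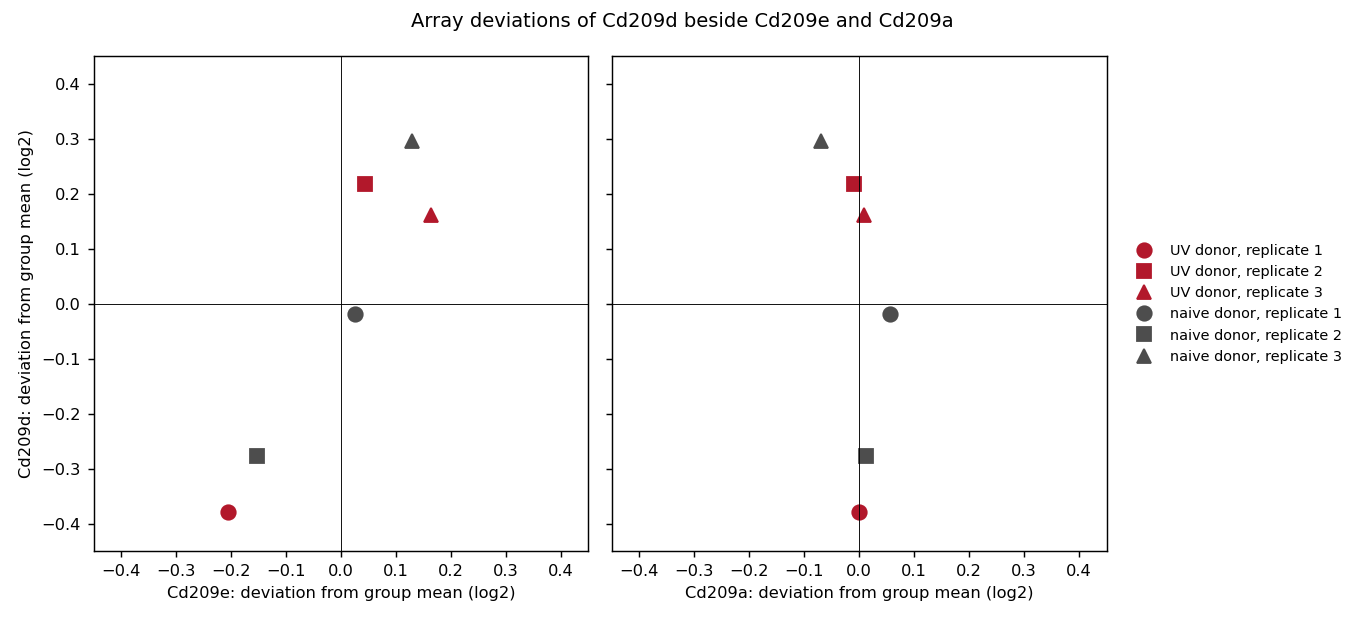
Deviation of each array from its group mean (log2 signal) for Cd209d on the vertical axis, against Cd209e at left and Cd209a at right. Red symbols are UV-donor arrays, grey symbols naive-donor arrays, and shapes mark replicate numbers. Cd209d and Cd209e vary together over the 6 arrays (r = 0.94), while those of Cd209a stay within -0.07 to 0.06.

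Genes with profiles like that of Cd209a were sought among the tested genes that are not members, by Pearson correlation over the 6 arrays. The 5 most alike were Lrp4 (0.998), Ltf (0.997), Asb2 (0.992), Ccr4 (0.991) and Nrg2 (0.991). The group difference enters these values, and 102 of 13955 genes reached 0.95. With deviations from the group means alone the same 5 genes correlated with Cd209a at 0.63 to 0.93. Cd209a deviated by -0.0095 to 0.0094 on UV-donor arrays, against -0.07 to 0.06 on naive-donor arrays, which therefore weigh most. The genes were chosen on the same arrays, so neither these correlations nor the p-values below are separate support. Ltf encodes lactoferrin, a granule protein of neutrophils, and had 8.11, 8.10 and 8.15 on the UV-donor arrays, against 7.63, 7.63 and 7.48 on the naive-donor arrays (difference 0.54, limma adjusted p = 0.0199). Asb2, a subunit of a ubiquitin ligase, rose by 0.72, and Ccr4, the receptor for the chemokines CCL17 and CCL22, rose by 0.49 (limma adjusted p = 0.0199 for both). The differences of Lrp4 (0.24) and Nrg2 (0.14) did not pass.

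The 5 genes most like Cd209e were Rpl8 (0.994), Ptpn18 (0.992), Cep85 (0.992), Stfa2 (0.991) and Itgal (0.990), and 45 of 13955 genes reached 0.95. Correlations of their deviations with those of Cd209e ran from 0.92 to 0.95. These genes too were chosen by likeness over the same arrays. High values, and a shared order of the arrays, follow from that choice. Stfa2, a cysteine protease inhibitor, had 8.35, 8.69 and 8.71 on the UV-donor arrays, against 7.73, 7.60 and 7.76 on the naive-donor arrays (difference 0.89, limma adjusted p = 0.0199). Like Cd209e, it was lowest on replicate 1 in the UV-donor group and on replicate 2 in the naive-donor group. The other 4 did not pass, with differences from 0.06 for the ribosomal protein gene Rpl8 to 0.26 for the phosphatase gene Ptpn18.

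Some markers of other cell types differed between the groups, and 4 marker genes in all were called. Over all tested genes 0.172% were called higher and 0% lower. Among all 19938 genes, groups were apart with the UV-donor arrays higher in 9.53% and lower in 10.1%. Of 11 neutrophil markers all were tested, 9 had higher values and 2, S100a8 (0.77) and Ltf (0.54), were called in limma's fit. The mean log2 signal of the 11 was 8.93 to 9.05 on UV-donor arrays, against 8.48 to 8.66 on naive-donor arrays. Not all of them moved, with differences of -0.02 for Camp, -0.03 for Elane and 0.04 for Mpo. Of 7 tested monocyte markers 5 had higher values, Ms4a3 (1.09, limma adjusted p = 0.0387) was called, and the mean was 9.44 to 9.54 on UV-donor arrays, against 8.98 to 9.24 on naive-donor arrays. Ms4a6c (0.84), F13a1 (0.50) and Fcgr1 (0.23) were also higher in value, while Ccr2 (-0.02), Cx3cr1 (-0.03) and Csf1r (0.04) differed little. The mean of 9 macrophage markers overlapped, at 10.07 to 10.21 on UV-donor arrays and 10.08 to 10.10 on naive-donor arrays, but its members differed in both directions. Of these only the complement gene C1qb (0.63) was called. Groups were also apart, with higher UV-donor values, for C1qa (0.17), C1qc (0.46) and the surface receptor Adgre1 (0.51), and with lower ones for Cd5l (-0.996) and Mrc1 (-0.10). The 5 tested markers of type 1 conventional dendritic cells (cDC1) averaged 8.79 to 9.04 on UV-donor arrays, against 8.57 to 8.74 on naive-donor arrays, with none called and with the defining genes Xcr1 and Clec9a below the dim limit. Itgae (0.77) and Wdfy4 (0.45) were higher in value, Cadm1 (-0.16) was lower, and Tlr3 (0.01) and Irf8 (0.04) differed little. Eosinophil markers averaged 9.29 to 9.51 on UV-donor arrays, against 8.79 to 9.08 on naive-donor arrays, over 2 tested genes, with Epx, Ccr3 and Il5ra below the dim limit. Lists for plasmacytoid cells, mast cells and basophils, B cells and T and NK cells held no called gene. Their medians were 0.04, 0.15, 0.01 and -0.02, over 6, 2, 2 and 2 tested genes. Plasmacytoid markers went both ways, 3 higher and 3 lower, from -0.70 for Cox6a2 to 0.31 for Spib. The part of these cells in the Cd209 values was not tested. In such preparations more cells of a type and more RNA per cell cannot be told apart.

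Macrophages of the marginal zone and lymph node medulla are the known site of Cd209b. Of their 8 markers, Timd4, Spic and Cd163 were below the dim limit, as was Cd209b itself. The mean of the 5 tested was 8.09 to 8.31 on UV-donor arrays, against 8.47 to 8.56 on naive-donor arrays, with 4 of 5 lower in value. None was called in limma's fit, 2 being lower at an unadjusted p under 0.05, as were 766 of all 13956 tested genes. The 2 markers were Cd5l, a secreted scavenger protein, which differed by -0.996 (limma adjusted p = 0.0627), and the hyaluronan receptor Lyve1, which differed by -0.54 (limma adjusted p = 0.163). The scavenger receptor Marco differed by -0.05, the nuclear receptor Nr1h3 by -0.06 and the sialoadhesin Siglec1 by 0.11.

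IL-4 signals through its receptor and the transcription factor STAT6, a route known to act on DC-SIGN in human monocytes. Of 27 genes listed for that response 24 were tested, 9 with higher and 15 with lower values. The list's median difference was -0.02, against 0.0016 for all tested genes, and with centred array medians it was 0.01, against 0.04 for all tested genes. None was called by limma, and 1 was higher at an unadjusted p under 0.05, as were 1340 of all 13956 tested genes. The listed gene was Socs1, a feedback inhibitor, with 10.99 ± 0.05 in the UV-donor group and 10.86 ± 0.02 in the naive-donor group (SD, n = 3 each, limma adjusted p = 0.267). Chil3, a chitinase-like protein, and Tgm2, a transglutaminase, both typical IL-4 targets, each differed by -0.09 with limma adjusted p-values of 0.396 and 0.399. Among the tested genes, groups were apart and lower for Chil3, Tgm2, Arg1 (-0.08), Mrc1 (-0.10) and Ccl24 (-0.10), and apart and higher for Socs1. Over all 19938 genes, groups were apart and lower in 10.1% and apart and higher in 9.53%. The receptor chain Il4ra differed by -0.03 (95% interval -0.17 to 0.10) and Stat6 by -0.03 (-0.14 to 0.07).

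Regulators of Cd209 genes and of dendritic cell fate differed in both directions. Of 24 listed genes 23 were tested, 13 with higher and 10 with lower values, with a median difference of 0.0042. None was called by limma, and 0 passed an unadjusted p under 0.05 in either direction. Spi1, which encodes PU.1, differed by 0.0029 (95% interval -0.11 to 0.12), and Irf4, a factor of IL-4-grown dendritic cells, by -0.03 (-0.13 to 0.08). The 3 members of smallest p were Relb (0.12), the GM-CSF receptor chain Csf2ra (-0.08) and Stat5a (0.07), with limma adjusted p-values from 0.345 to 0.525. Ahr (0.17, 95% interval -0.11 to 0.46) and Tgfbr1 (0.13, -0.13 to 0.39) had larger differences with wide intervals.

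Partners of DC-SIGN comprise its adhesion ligands and the kinases and adaptors described for it in human cells. Of 22 listed genes 15 were tested, 9 with higher and 6 with lower values, with a median difference of 0.0096. Limma called none, with 1 higher and 3 lower where p was not adjusted and the threshold was 0.05. By the same measure 1340 of all 13956 tested genes were higher and 766 lower. Ptpn6, the phosphatase SHP-1, had 11.00 ± 0.06 in the UV-donor group and 10.83 ± 0.07 in the naive-donor group (SD, n = 3 each). The difference was 0.17, with a limma adjusted p of 0.221. The adhesion ligand Ceacam1 differed by -0.15, with a limma adjusted p of 0.262. Another 6 listed genes were not analysed here.

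Other C-type lectin receptors of myeloid cells did not follow the 3 Cd209 genes as a group. Of 29 listed genes 23 were tested, 13 with higher and 10 with lower values, and the median difference was 0.03. Limma called none, with 4 higher and 3 lower by the unadjusted p at that threshold. Of all 13956 tested genes, 1340 were higher and 766 lower by that measure. Clec4b2, a lectin of the Dcir subfamily, came nearest, with 11.34, 11.23 and 11.28 on the UV-donor arrays, against 10.85, 10.98 and 10.91 on the naive-donor arrays (difference 0.37, limma adjusted p = 0.0551). The scavenger lectins Colec12 (-0.35) and Olr1 (-0.24) differed the other way, both with a limma adjusted p of 0.149. The mannose receptor Mrc1, which binds some of the same glycans as DC-SIGN, differed by -0.10 (95% interval -0.22 to 0.02) and the lectin Mgl2 by -0.02 (-0.12 to 0.08).

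**Figure D4:**
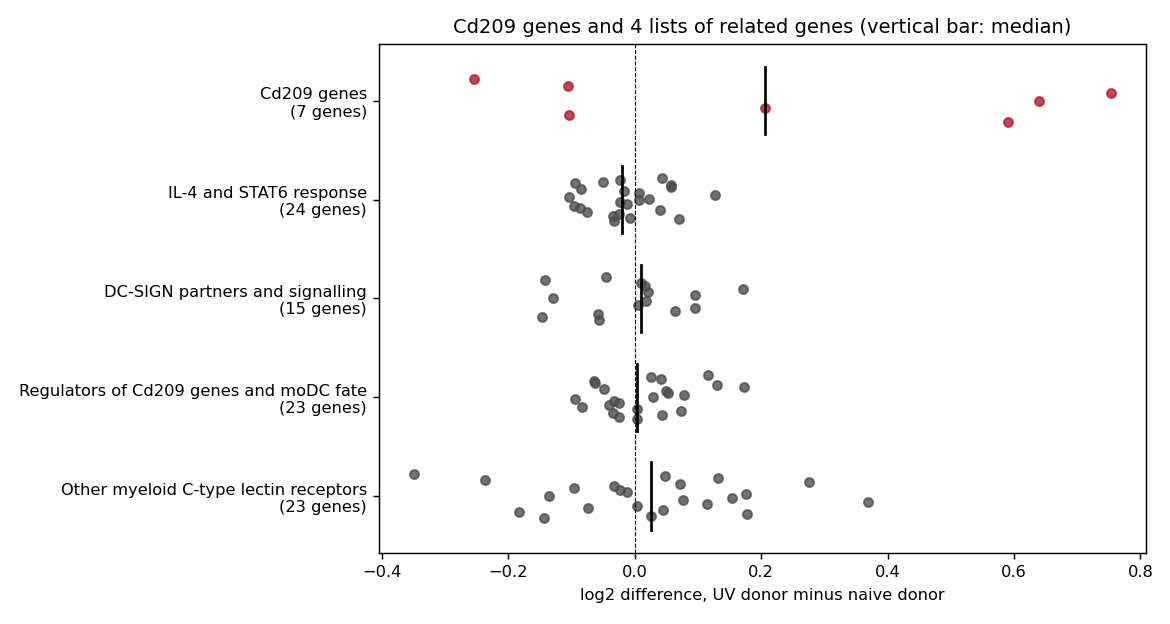
Log2 difference, UV donor minus naive donor, of each of the 7 Cd209 genes (red, top row) and of the tested genes in 4 lists of related genes (grey), with a vertical bar at each median. The medians of the lists lie between -0.02 and 0.03, and that of the Cd209 genes lies at 0.21. The family was chosen on the differences of Cd209a, Cd209e and Cd209d, which lie at 0.59 or above, so their distance from the lists follows from that choice.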

How the data were processed

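RNA of 6 preparations was hybridised to 6 Affymetrix arrays, 3 per group, assigned through the labels. The deposited values (2.52 to 14.6) are log2 signals, as their range shows. The submitters' processing notes name RMA, oligo and limma without versions. The summary level, genome build and array batches are not given in the sources used here. RMA draws array distributions together, so a shift common to all genes would be hidden. Prostaglandin E2 pellets are mentioned in the design text, and no such sample was analysed here.

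Of 35556 probe sets 21789 had 1 gene symbol, 1621 several and 12146 were not listed. For 999 genes with more than 1 such probe set the brightest was used. Genes whose mean fell short of the 30th percentile counted as dim and were not tested, which left 13956. The group comparison used lmFit and eBayes of limma 3.58.1 (R 4.3.3) with Benjamini-Hochberg adjustment and a threshold of 0.05. Differences of members and neighbouring genes, with moderated SE and 95% intervals, came from the same model over all probe sets. With 3 against 3 arrays an exact permutation test reaches a two-sided p of 0.1 at best, so calls rest on variance pooled across genes. The number of arrays limits the precision. The fit was tested on simulated data with independent normal noise for each gene. Such data lack shifts of whole arrays and correlation among genes, so they do not bear on how stable the calls are. Promoters were scanned in Python 3.11.15 and figures drawn with matplotlib 3.10.9.

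The members and gene lists were chosen with earlier results of these data known. Genes named are all members, the 3 of smallest p and any called gene of each process list, 5 protein-coding neighbours on each side, the 5 genes most alike in profile to Cd209a and to Cd209e (predicted genes and small RNAs left out) and 6 fixed genes. Of the fixed genes, Ptprc, which encodes CD45, differed by 0.03 and the others are in the report. A gene of the partner list that this rule names is not reported here. Marker genes and others outside that rule were named after their values were seen.

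Alternatives were a replicate block, other dim filters, centred medians, quantile normalization, cyclic loess, a trended robust variance prior, weights per array, averaged probe sets, a fit to every probe set and leaving out each array. For arrays with the same replicate number, deviations from the group means correlated at -0.13, -0.22 and 0.15. Arrays with different numbers were not compared in this way, so whether replicates pair was not tested.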

Additional observations from a re-analysis of the deposited data

How the results depend on the processing

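The differences of the 7 Cd209 genes kept their sign under every alternative run and moved by no more than 1 SD pooled over both groups, although Cd209a and Cd209g moved by more than the SD of their tighter group. Across the alternatives that used all arrays, that of Cd209a ran from 0.56 to 0.63, of Cd209e from 0.73 to 0.81, of Cd209d from 0.60 to 0.72 and of Cd209g from -0.25 to -0.21. With single arrays left out, the ranges were 0.56 to 0.62 for Cd209a, -0.14 to -0.06 for Cd209b, 0.11 to 0.28 for Cd209c, 0.50 to 0.83 for Cd209d, 0.67 to 0.86 for Cd209e, -0.19 to -0.02 for Cd209f and -0.28 to -0.22 for Cd209g. The calls were less stable. Of 2 members called, 1 (Cd209a) was called with no dim filter and with quantile normalization, 0 with all probe sets tested together, and 0 to 2 with single arrays left out. The count over all genes, 24, was 43 with centred medians, 45 with an intensity trend and robust prior, 43 with array weights, 0 with all probe sets (limma, with 1801 higher and 1708 lower by an unadjusted p below 0.05), and 1 to 32 with single arrays left out. With the replicate block limma called 0 genes and 0 members (with 1286 higher and 666 lower by an unadjusted p below 0.05). Clec4b2 was called with the 50th percentile filter, centred medians, the trend with robust prior and array weights (limma adjusted p from 0.0240 to 0.0465), and its adjusted p lay at or above 0.0539 under the other alternatives. Differences near 0 changed sign: Il4ra was 0.0017 with centred medians and ran from -0.075 to 0.020 with single arrays left out, Irf4 was 0.0090 with centred medians, and Spi1 ran from -0.021 to 0.034 with single arrays left out. With centred medians the medians of the 4 lists were 0.01 (IL-4), 0.04 (partners), 0.04 (regulators) and 0.06 (other lectins), against 0.04 for all tested genes. The cause of these changes was not tested, beyond the fewer arrays or more features that an alternative itself brings. Weak signals limit what can be said of Cd209b, Cd209c, Cd209f and Cd209g.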
